A study of Mus musculus with 4 samples.

Results

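The 5 genes that carry small nucleolar RNAs (snoRNAs) in their introns and were followed here through a single-nucleus RNA sequencing study of mouse brain were Snhg1, Snhg6, Snhg8, Snhg12 and Gas5. They were taken by gene symbol, and all 5 were found among the 32285 genes counted. The list was chosen by the UMIs of these 4 libraries, per library and per marker-gated class, so the levels and ratios given are a description and carry no test. The study set 2 factors against each other, the harvest of the brain and a methanol step on the nuclei, with 1 library for each of the 4 combinations. All mice were wild-type C57BL/6 aged 10 weeks, and the tissue was brain without cerebellum, frozen on dry ice for 10 min before nuclei were made from at most 50 mg. The groups were methanol-fixed nuclei of an anaesthetised mouse (craniotomy under isoflurane), methanol-fixed nuclei of a mouse killed by cervical dislocation (post-mortem), unfixed nuclei of an anaesthetised mouse and unfixed nuclei of a mouse killed by cervical dislocation. Fixed nuclei were held in 80% methanol at -20 °C for 30 min and then passed through the buffers of a fixation kit, which the unfixed nuclei did not see, so methanol and these buffers cannot be told apart. The labels do not say whether fixed and unfixed nuclei of a harvest came from one brain, and harvest, animal and tissue piece cannot be told apart.

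SnoRNAs are short RNAs of the nucleolus that guide chemical changes on ribosomal RNA. The box C/D kind guides methylation of ribose and the box H/ACA kind guides the conversion of uridine to pseudouridine. In mammals most of them are cut out of introns of a host gene after splicing. In hosts of the Snhg and Gas5 kind the spliced exons encode no known long protein, and the spliced RNA of several of them is short-lived because nonsense-mediated decay removes it in the cytoplasm. Several hosts begin with a run of pyrimidines, the feature that ties messages for ribosomal proteins to cell growth, and Gas5 was named for its rise when growing cells arrest.

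By the GENCODE M21 annotation of GRCm38 (mm10), the build named in the submitters' processing notes, the hosts are compact genes. Snhg1 lies at chr19:8723475-8726443 on the plus strand with 8 snoRNA genes inside it. Snhg6 lies at chr1:9941959-9944118 on the minus strand with 1, Snhg8 at chr3:123507552-123508404 on the minus strand with 1, and Snhg12 at chr4:132308623-132311024 on the plus strand with 5. Gas5, at chr1:161034422-161038539 on the plus strand, holds 10 in a model of 12 exons. All 25 annotated entries, which are 23 separate loci, sit in introns of the host model with most exons, and none of them was among the genes counted. The UMIs described here are therefore those counted for the host genes and say nothing of the snoRNAs themselves.

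The snoRNAs printed here, read from the GENCODE M21 transcripts, show what the introns of these hosts release. Capitals mark the box C and box D letters (TGATGA and CTGA) or the ACA of the H/ACA kind. Snord87 is the cargo of Snhg6 and Snora24 that of Snhg8. Snord99 is from intron 4 of Snhg12 and Snord47 from intron 10 of Gas5.
Snord87: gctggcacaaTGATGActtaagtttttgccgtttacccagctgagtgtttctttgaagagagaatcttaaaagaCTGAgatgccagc
Snora24: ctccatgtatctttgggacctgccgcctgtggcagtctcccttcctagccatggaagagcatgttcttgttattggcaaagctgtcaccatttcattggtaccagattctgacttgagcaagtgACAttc
Snord99: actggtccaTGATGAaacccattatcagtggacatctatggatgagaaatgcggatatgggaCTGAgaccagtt
Snord47: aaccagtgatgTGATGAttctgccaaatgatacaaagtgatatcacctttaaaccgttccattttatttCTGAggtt

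Start sites were read from RefSeq promoters of GRCm38.p6, in which 4 of the 5 hosts have an entry (Gas5 has 2 starts; Snhg6 has none). The windows run from 40 bases before the start to 30 after it. Whether they bear on the ratios given below was not tested. Capitals mark a pyrimidine tract, searched on the gene's strand as a C followed by at least 4 more C or T, beginning within 15 bases of the start. One was found at the second start of Gas5 and at those of Snhg8 and Snhg12, and 39.5% of all 32851 promoters hold one by the same search. No tract of this form was in the windows of Snhg1 and of the first Gas5 start.
Gas5 second start: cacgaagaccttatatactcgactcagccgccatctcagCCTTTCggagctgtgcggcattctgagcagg
Snhg8: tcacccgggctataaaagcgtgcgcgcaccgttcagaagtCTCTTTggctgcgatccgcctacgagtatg
Snhg12: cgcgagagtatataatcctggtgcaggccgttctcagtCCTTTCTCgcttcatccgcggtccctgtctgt
Snhg1: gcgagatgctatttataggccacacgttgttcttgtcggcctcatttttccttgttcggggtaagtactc

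Each library kept between 6833 and 15134 nuclei and between 51528633 and 67205676 unique molecular identifiers (UMIs, each standing for 1 captured RNA molecule). The median nucleus held 7829 UMIs in the anaesthetised and 6300.5 in the post-mortem methanol library, against 3024.5 and 3785 in their unfixed partners, so fixed nuclei were the deeper ones. Any 2 libraries shared between 42 and 150 of their kept barcodes, at most 1.2% of the smaller one. The methanol libraries also kept barcodes of very high depth, 93 over 30000 UMIs in the anaesthetised and 44 in the post-mortem library, against 0 in both unfixed libraries. In the post-mortem methanol library 8 of them exceeded 100000 UMIs, and the largest held 758617 UMIs over 16626 genes, 243 of them from Gas5. The values without all barcodes over 30000 UMIs are given beside the results they touch.

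Levels are UMIs scaled to a library total of 1000000 (CPM) over its summed nuclei, with exact Poisson intervals at 95% in the plot, and cover counting error only. Gas5 was the highest of the 5 in every library, at 122.1 CPM in the anaesthetised and 123.8 CPM in the post-mortem methanol library, against 47.3 and 70.0 CPM in the anaesthetised and post-mortem unfixed libraries. Snhg8, host of Snora24, had 21.2 and 23.0 CPM in the anaesthetised and post-mortem methanol libraries, against 7.94 and 9.96 CPM in the unfixed ones in the same order of harvest. Both methanol libraries stood above both unfixed libraries for these genes, with intervals that did not overlap. The share of all genes that part in this way is not given here, so how unusual it is cannot be read from it.

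Snhg12 had 18.7 and 21.9 CPM in the anaesthetised and post-mortem methanol libraries, against 8.83 and 12.3 CPM in the anaesthetised and post-mortem unfixed libraries. Snhg1, the host of 8 snoRNAs, had 15.2 and 19.1 CPM after methanol, against 6.26 and 8.52 CPM unfixed, in the same order of harvest. Snhg6, the host of Snord87, had 14.9 and 18.0 CPM after methanol, against 6.08 and 8.01 CPM unfixed. The same separation held for all 3, methanol above unfixed in either harvest, and within each of the 2 treatments the anaesthetised library was the lower one.

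**Figure D1:**
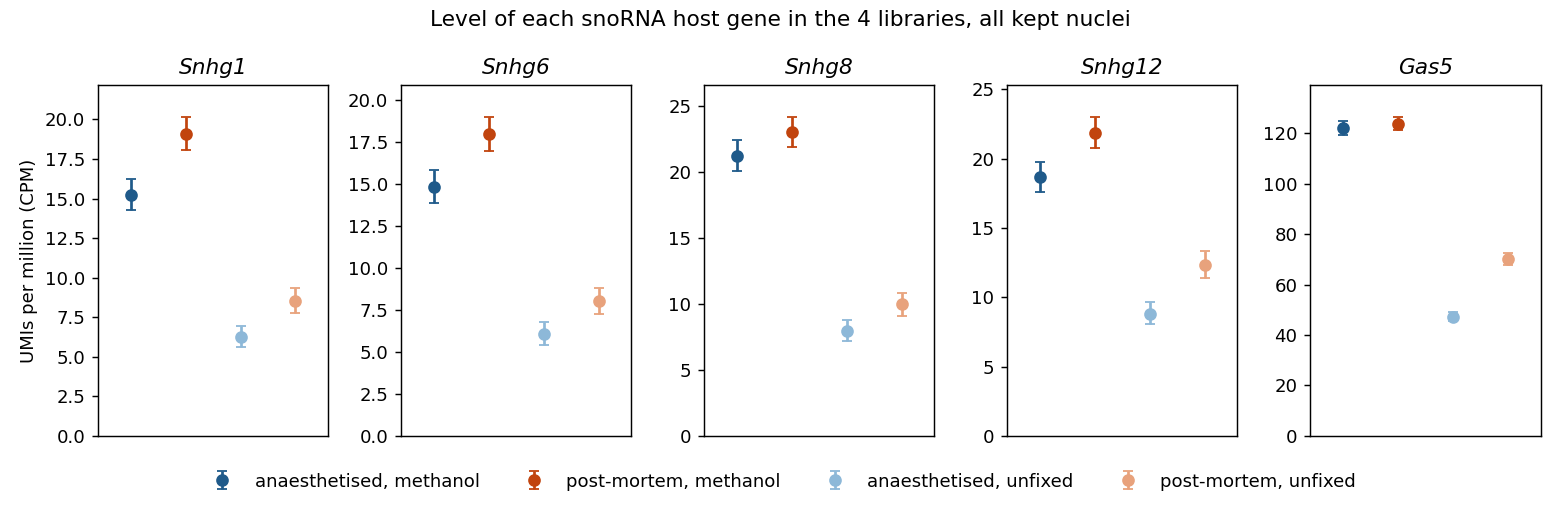
Level of each host gene in CPM (y axis, each panel from 0) in the 4 libraries, all kept nuclei, with 1 library per point and 95% Poisson intervals for counting error. In every panel both methanol libraries (dark) lie above both unfixed ones (pale), as for Gas5 at 122.1 and 123.8 CPM against 47.3 and 70.0 CPM.

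Compared with each other per kilobase of gene, Gas5 (29.7 and 30.1 CPM per kb in the anaesthetised and post-mortem methanol libraries) and the short Snhg8 (24.8 and 26.95 CPM per kb) lay near each other. Snhg12 (7.77 and 9.11), Snhg6 (6.88 and 8.32) and Snhg1 (5.13 and 6.43 CPM per kb) were lower in the same libraries. Kits of this kind read RNA from its 3′ end, so scaling by gene length is only a rough guide here.

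The fixation comparison asked how the methanol step bears on the nuclear transcriptome. It gave log2 ratios of methanol over unfixed, with 0.5 counts added, of 1.41 (95% interval 1.25 to 1.58) in the anaesthetised pair and 1.21 (1.06 to 1.35) in the post-mortem pair for Snhg8. Snhg6 had 1.29 (1.102 to 1.48) and 1.16 (1.00 to 1.33), and Snhg1 had 1.28 (1.099 to 1.47) and 1.16 (1.01 to 1.32), in the anaesthetised and post-mortem pairs. These 3 genes were at least 2-fold higher in both pairs, which 0.306% of the 9789 genes with a mean of at least 10 CPM were.

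Snhg12 was 1.08 (0.92 to 1.24) higher on the log2 scale in the anaesthetised pair and 0.82 (0.69 to 0.96) in the post-mortem pair. Gas5 was 1.37 (1.30 to 1.43) higher in the anaesthetised pair and 0.82 (0.77 to 0.88) in the post-mortem pair. Both passed 2-fold in the anaesthetised pair alone. All 5 were higher in both pairs, against 40.9% of the genes tested, whose median ratio was -0.02 in each pair. When all 9789 genes were ordered by the smaller of both ratios, Snhg8 was number 7, Snhg6 number 10, Snhg1 number 11, Snhg12 number 87 and Gas5 number 90. With 1 library a group a ratio compares 2 libraries and has no replicate check. In nuclear data a smaller number of RNA molecules of other genes and a larger number of these cannot be told apart.

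**Figure D2:**
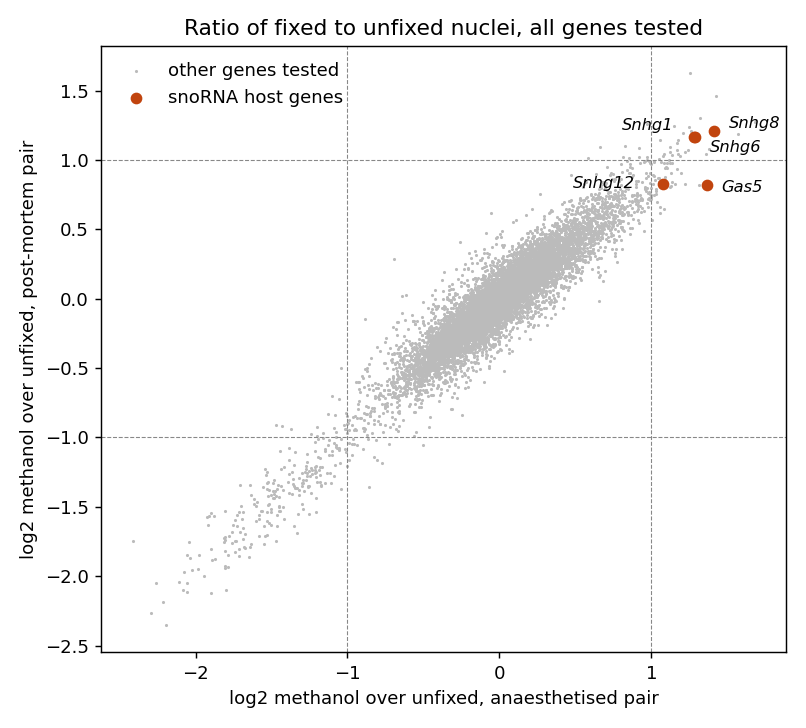
Log2 ratio of methanol over unfixed for each of the 9789 genes tested, anaesthetised pair on the x axis and post-mortem pair on the y axis, with dashed lines at 2-fold. Snhg8, Snhg6 and Snhg1 lie past 2-fold on both axes, and Snhg12 and Gas5 past it in the anaesthetised pair, with post-mortem ratios of 0.82.

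The barcodes of very high depth carried between 7.37% (Snhg6) and 8.48% (Snhg8) of a host's UMIs in the post-mortem methanol library, where they held 6.48% of all UMIs. In the anaesthetised methanol library they carried 4.05% (Snhg1) to 6.40% (Snhg6), beside 6.05% of all UMIs. Without them the ratios were 1.42 and 1.18 for Snhg8, 1.28 and 1.15 for Snhg6, 1.31 and 1.14 for Snhg1, 1.102 and 0.80 for Snhg12 and 1.39 and 0.80 for Gas5, each in the anaesthetised and then the post-mortem pair. The same 3 genes stayed past 2-fold in both pairs without these barcodes, but each lost that place under another setting. With gated classes weighted equally, Snhg8 was 0.71 higher on the log2 scale in the anaesthetised and 0.91 in the post-mortem pair, and Snhg6 0.68 in the anaesthetised pair. With nuclei thinned to 1000 UMIs, Snhg6 was 0.92 and 0.97 higher in the same order, and Snhg1 0.80 in the post-mortem pair.

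Depth differs between the treatments, so the hosts were also read in nuclei of like depth. It also differs between the cell classes gated below, so a step can hold unlike mixes of classes in the libraries compared. The part of this mix in the ratios by step was not tested. Among nuclei of 4000 to under 8000 UMIs, Gas5 had 149.8 CPM in the anaesthetised and 138.6 CPM in the post-mortem methanol library, against 41.6 and 66.9 CPM in the anaesthetised and post-mortem unfixed libraries. The log2 ratio there was 1.85 (1.73 to 1.97) in the anaesthetised and 1.05 (0.97 to 1.14) in the post-mortem pair, larger than over all nuclei. In nuclei of 500 to under 1000 UMIs it was 1.15 (0.68 to 1.57) and 0.40 (-0.01 to 0.79) in the same pairs. In every library the level of Gas5 was lower in nuclei of 8000 to under 16000 UMIs than in those of 500 to under 1000. At 8000 to under 16000 UMIs it was 124.2 and 109.5 CPM in the anaesthetised and post-mortem methanol libraries and 35.9 and 51.6 CPM in the unfixed ones, while at 500 to under 1000 UMIs it was 199.5 and 151.4 CPM after methanol and 90.6 and 115.3 CPM unfixed, in the same order of harvest.

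Over 6 steps of depth and both pairs, the Gas5 ratio was above 0 in 12 of 12 cases. For the 4 Snhg genes together it was above 0 in 46 of 48, though the interval lay wholly above 0 in only 35 of these and in 11 of the 12 for Gas5. Over all genes tested with at least 20 UMIs in a step and pair, 50.5% of ratios and 25.6% of intervals lay above 0. Both exceptions were Snhg12 in the post-mortem pair, with log2 ratios of -0.02 (-0.996 to 0.85) at 500 to under 1000 UMIs and -0.48 (-1.16 to 0.15) at 1000 to under 2000 UMIs, and intervals that include 0.

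**Figure D3:**
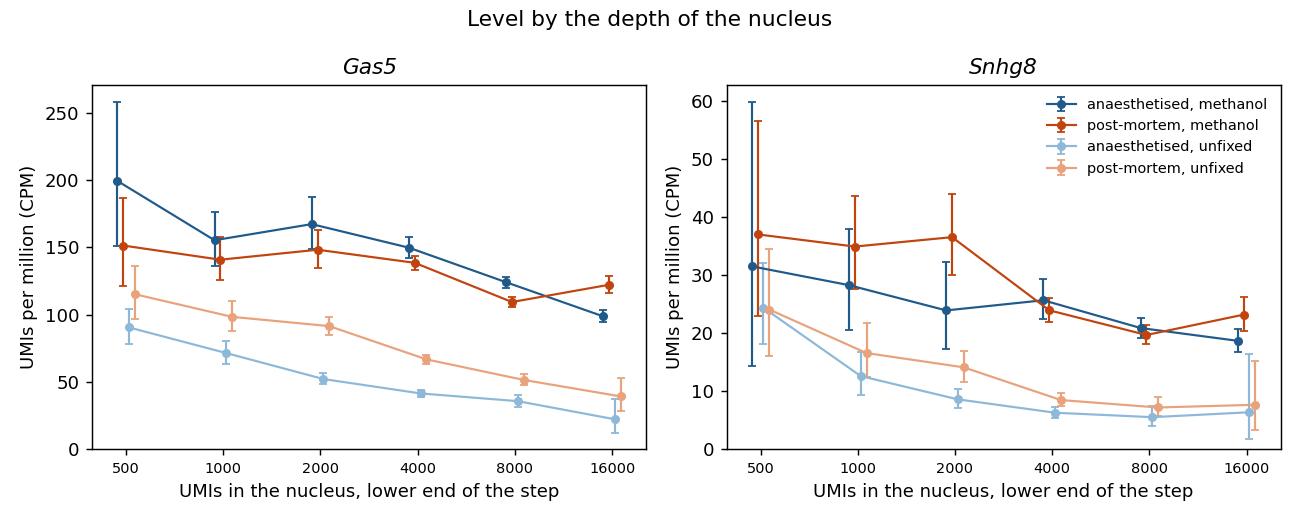
Level of Gas5 and Snhg8 in CPM (y axis, from 0) by the number of UMIs in the nucleus (x axis, 6 steps), 1 line per library, with 95% Poisson intervals. The Gas5 lines of the methanol libraries lie above those of their unfixed partners at each step, such as 149.8 against 41.6 CPM at 4000 to under 8000 UMIs in the anaesthetised pair.

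Thinned to 1000 UMIs each, 12.5% (11.7 to 13.3, exact binomial) of anaesthetised and 11.9% (11.2 to 12.6) of post-mortem methanol nuclei held a Gas5 UMI. The shares were 4.79% (4.42 to 5.18) in the anaesthetised and 6.93% (6.46 to 7.43) in the post-mortem unfixed nuclei. Thinning left out 351 and 694 shallower nuclei of the anaesthetised and post-mortem methanol libraries, and 2762 and 1592 of the unfixed ones. At full depth the shares were 56.5% and 48.0% after methanol, against 14.6% and 23.4% unfixed. For the other hosts the thinned shares ran from 1.33% to 2.79% in methanol libraries and from 0.703% to 1.26% in unfixed ones. No class is known to lack these hosts, so the share that free RNA in the droplets would give was not measured.

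Nuclei were sorted into classes by marker genes. A nucleus entered a class with UMIs from at least 3 distinct markers of it when the class held at least 66.7% of its marker UMIs, and between 41.7% and 59.2% of kept nuclei were gated. Compared were 6 classes with at least 50 nuclei in each library, named after their gate: excitatory, inhibitory interneuron, medium spiny neuron (the projection neuron of the striatum), astrocyte, oligodendrocyte (the myelin-forming cell) and microglia (the brain's resident macrophage). In each of them the summed level of its own marker list exceeded that of every other list. In the excitatory gate the margin was narrowest, with 1654 to 1799 CPM for its own list and 439 to 466 CPM for the medium spiny list.

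In the neuron classes all 5 hosts were higher after methanol in both pairs, with all 30 ratios and the lower ends of all 30 intervals above 0, as 21.8% of intervals were over all genes tested in these classes. Higher in both pairs were also 35.6% of genes tested in excitatory, 36.5% in inhibitory interneuron and 38.8% in medium spiny nuclei. Gas5 in medium spiny nuclei had 124.6 CPM in the anaesthetised and 112.7 CPM in the post-mortem methanol library, against 41.7 and 55.3 CPM in the unfixed ones, and log2 ratios of 1.58 (1.40 to 1.76) and 1.03 (0.90 to 1.16). Snhg8 in excitatory nuclei had 22.5 and 25.1 CPM after methanol, against 5.86 and 6.24 CPM unfixed, with ratios of 1.90 (1.21 to 2.76) and 1.97 (1.28 to 2.83), though only 17 UMIs stood behind each unfixed value. Snhg6 in inhibitory interneuron nuclei had 15.3 and 19.97 CPM after methanol, against 6.31 and 6.23 CPM unfixed, with ratios of 1.26 (0.62 to 1.99) and 1.66 (1.08 to 2.33). The intervals of methanol and unfixed libraries did not overlap in any of these, and the share of all genes that part in this way is not given here.

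Of the 5 hosts, 4 were at least 2-fold higher in both pairs in excitatory nuclei, where 0.923% of 9213 genes were, the exception being Gas5 at 1.45 and 0.93. In medium spiny nuclei it was 4 of 5, beside 1% of 8964 genes, and Snhg12 was the other one at 1.03 and 0.996. In inhibitory interneuron nuclei it was 2 of 5, Snhg1 and Snhg6, beside 0.389% of 9780 genes. There Snhg12 had ratios of 0.75 (0.26 to 1.27) and 0.86 (0.41 to 1.36), Snhg8 1.53 and 0.94 and Gas5 1.16 and 0.72, each in the anaesthetised and then the post-mortem pair.

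In oligodendrocyte nuclei 4 of 5 hosts were higher in both pairs (27% of 9221 genes were), and none reached 2-fold in both, which 0.618% did. Gas5 had 160.4 and 150.0 CPM in the anaesthetised and post-mortem methanol libraries, against 73.7 and 100.6 CPM in the unfixed ones, and log2 ratios of 1.12 (0.81 to 1.44) and 0.58 (0.32 to 0.83). Snhg12 was the exception, at 18.8 and 15.4 CPM after methanol, against 14.96 and 18.8 CPM unfixed, with ratios of 0.33 (-0.49 to 1.15) and -0.29 (-0.99 to 0.40). Its libraries overlapped.

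In astrocyte and microglia nuclei Snhg8 and Gas5 alone passed the filters, and both were higher in both pairs, as were 25.2% of 6938 genes in astrocyte and 36.4% of 6313 in microglia nuclei. Neither was 2-fold higher in both, which 1.95% of genes in astrocyte and 2.06% in microglia nuclei were. Gas5 had ratios of 0.84 (0.21 to 1.499) and 0.58 (-0.01 to 1.199) in astrocyte and of 0.71 (0.11 to 1.34) and 0.34 (-0.22 to 0.93) in microglia nuclei, in the anaesthetised and post-mortem pairs. The other hosts rested on 0 to 17 UMIs per library there. Snhg12 had 10 UMIs in anaesthetised methanol microglia and 0 in the unfixed ones. Setting the 0 to 3 counts made it 3.85-fold higher, which leaves out the counting error of the 10 UMIs and is no strict lower bound. In post-mortem astrocytes Snhg12 had 4 UMIs after methanol and 12 unfixed, a ratio of -1.69 (-3.89 to -0.08).

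Over the glial classes together, 25 of 30 ratios were above 0 and 10 intervals lay wholly above it. Over the genes tested in these classes 43.9% of ratios and 10.6% of intervals lay above 0. These shares cover only genes that passed the filters. The 30 host ratios also hold hosts that failed them in astrocyte and microglia nuclei, so the sets are unlike. Whether the ratio differs between neurons and glia was not tested, since each class has 1 library a group. Levels of neuronal markers differed in the glial gates: the excitatory list summed to 35.6 and 41.6 CPM in anaesthetised and post-mortem methanol oligodendrocytes, against 213.3 and 104.0 CPM in unfixed ones. In microglia it summed to 39.4 and 62.6 CPM after methanol, against 255.7 and 160.7 CPM unfixed. Their part in the glial ratios was not tested.

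**Figure D4:**
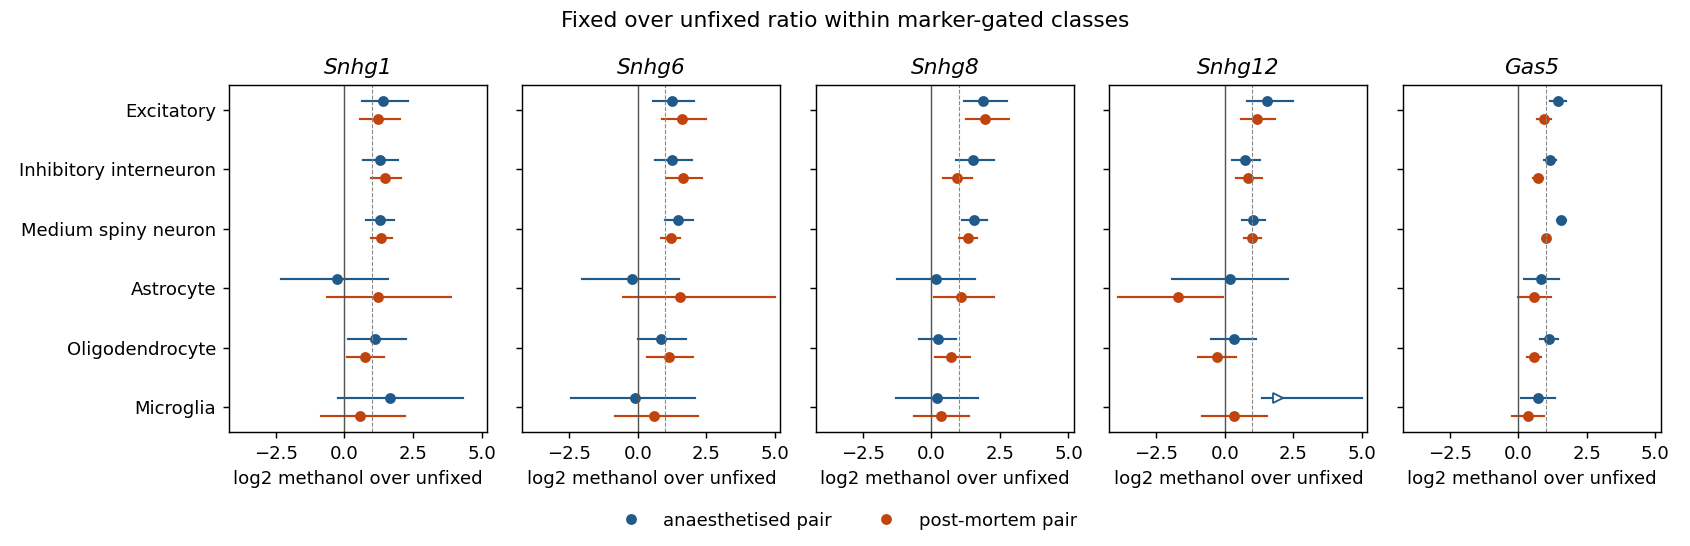
Log2 ratio of methanol over unfixed (x axis) in each gated class (rows) for the 5 hosts, anaesthetised pair in blue above post-mortem pair in red, with exact 95% intervals clipped at the panel edges. The solid line is no difference and the dashed line 2-fold. The open triangle is the ratio with 0 unfixed UMIs set to 3 counts, which is no strict lower bound. All 30 neuronal intervals lie above 0, while many glial intervals cross it.

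Between classes within a library, Gas5 was highest in oligodendrocyte or microglia nuclei in all 4 libraries and lowest in excitatory nuclei in 3 of 4. In the anaesthetised methanol library the order ran from oligodendrocyte (160.4 CPM) and microglia (160.4) over inhibitory interneuron (127.8), medium spiny neuron (124.6) and astrocyte (124.1) to excitatory (111.6), with overlapping intervals between all neighbours. In the post-mortem methanol library it was oligodendrocyte (150.0), microglia (133.5), inhibitory interneuron (132.9), medium spiny neuron (112.7), excitatory (101.7) and astrocyte (97.2 CPM), and only inhibitory interneuron and medium spiny neuron were apart as neighbours.

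In the anaesthetised unfixed library Gas5 ran from microglia (97.4) over oligodendrocyte (73.7), astrocyte (69.1) and inhibitory interneuron (57.3) to medium spiny neuron (41.7) and excitatory (40.7 CPM), with a gap again only between inhibitory interneuron and medium spiny neuron. In the post-mortem unfixed library it ran from microglia (104.8) over oligodendrocyte (100.6), inhibitory interneuron (80.8), astrocyte (64.9) and medium spiny neuron (55.3) to excitatory (53.2 CPM), with no gap between neighbours. Oligodendrocyte and excitatory nuclei, which were not neighbours in the order, had Gas5 intervals apart in all 4 libraries. Glial nuclei were the shallow ones, with medians of 760 to 2143 UMIs, against 3508 to 11396.5 UMIs in the neuron classes. The part of depth in this order was not tested.

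The 3 highest classes of Snhg8 were microglia, astrocyte and oligodendrocyte in every library. In unfixed nuclei it had 22.2, 21.9 and 19.7 CPM in oligodendrocyte, microglia and astrocyte nuclei of the anaesthetised mouse, against 5.86 to 6.94 CPM in its neuron classes, with intervals apart. In the other 3 libraries the intervals of glial and neuronal neighbours in the order overlapped, but not always those of classes further apart. Post-mortem methanol microglia (48.0 CPM) lay above all neuron classes (18.3 to 25.1 CPM), with intervals apart. Post-mortem unfixed oligodendrocyte (16.3 CPM) and microglia nuclei (37.3 CPM) lay in the same way above medium spiny (8.50 CPM) and excitatory nuclei (6.24 CPM). In the anaesthetised methanol library the Snhg8 intervals of all classes overlapped. Snhg1 ranged over classes from 11.3 to 25.3 CPM in the anaesthetised and from 13.3 to 25.0 CPM in the post-mortem methanol library, with overlapping neighbours in each library. Post-mortem methanol inhibitory interneuron (23.7 CPM) and oligodendrocyte nuclei (24.5 CPM) lay above medium spiny nuclei (15.7 CPM), with intervals apart. So did post-mortem unfixed oligodendrocyte (14.4 CPM) against medium spiny nuclei (6.10 CPM). In both anaesthetised libraries the Snhg1 intervals of all classes overlapped. For Snhg6 the intervals of all classes overlapped in each library. Snhg12 had no order that held across libraries: in the post-mortem unfixed library it was higher in oligodendrocyte (18.8 CPM) and microglia nuclei (27.95 CPM) than in medium spiny nuclei (10.01 CPM), with intervals apart. In the post-mortem methanol library its astrocyte level of 5.89 CPM, from 4 UMIs, lay below that of excitatory nuclei (23.5 CPM), again with intervals apart.

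The harvest comparison asked how collection from the anaesthetised animal compares with collection after death. All 5 hosts were lower in the anaesthetised library in both pairs, as were 59.5% of the 9789 genes tested, so the shared direction is that of most genes. None reached 2-fold lower in both, which 0.112% did. The log2 ratio of anaesthetised over post-mortem was -0.33 (-0.45 to -0.20) in the methanol pair and -0.45 (-0.66 to -0.24) in the unfixed pair for Snhg1. Snhg6 had -0.27 (-0.40 to -0.15) and -0.40 (-0.61 to -0.18), Snhg8 -0.12 (-0.23 to -0.01) and -0.33 (-0.52 to -0.14), and Snhg12 -0.23 (-0.34 to -0.12) and -0.48 (-0.66 to -0.31), in the methanol and unfixed pairs.

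For Gas5 the unfixed pair differed by -0.56 (-0.64 to -0.49), while the methanol pair differed by -0.02 (-0.07 to 0.03), an interval that includes 0. Without the barcodes over 30000 UMIs the methanol ratio of Gas5 was 0.03, and with median-of-ratios scaling, which moves every harvest ratio up by 0.10, it was 0.08. The other 4 hosts were lower in both pairs under either setting, but the sign of 3 of them turned under another one. Snhg6 was 0.26 in the unfixed pair with classes weighted equally, Snhg8 0.15 in the methanol pair among nuclei of 3000 to 6000 UMIs, and Snhg12 0.039 in the methanol pair with nuclei thinned to 1000 UMIs. Snhg1 alone stayed below 0 in both pairs under every alternative run in all nuclei.

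By class, the harvest ratios ran from -0.97 to 0.22 in the neuron classes and from -1.94 to 1.98 in the glial ones, where UMIs were few. Over all 60 ratios, 10 intervals lay below 0 and 1 above it, and over all genes tested in the classes 12% of intervals lay below 0 and 11.4% above. The 60 also hold hosts that failed the filters in astrocyte and microglia nuclei, while the shares cover only genes that passed. Lower in both pairs were 3 of 5 hosts in excitatory (41.4% of genes), 3 in inhibitory interneuron (45.9%), 4 in medium spiny (36.6%) and 1 in oligodendrocyte nuclei (27.7%). Of the hosts that passed the filters, it was 0 of 2 in astrocyte (24%) and 1 of 2 in microglia nuclei (28.1%). The 1 above was Gas5 in medium spiny nuclei of the methanol pair, at 124.6 CPM in the anaesthetised and 112.7 CPM in the post-mortem library, a ratio of 0.15 (0.03 to 0.26). In the unfixed pair the same class had 41.7 CPM in the anaesthetised and 55.3 CPM in the post-mortem library, a ratio of -0.40 (-0.60 to -0.22). Gas5 was lower in the unfixed pair also in excitatory (-0.39), inhibitory interneuron (-0.49) and oligodendrocyte nuclei (-0.45), with intervals below 0.

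Other genes of the pathway were read beside the hosts. Over all 9789 genes tested, 40.9% were higher and 46.9% lower after methanol in both pairs. At least 2-fold in both were 0.306% higher and 2.22% lower. Of 16 further non-coding snoRNA hosts, 15 were in the files and 7 passed the filter of 10 CPM. After methanol 6 of these were higher in both pairs and none reached 2-fold in both, with a median log2 ratio of 0.68 in the anaesthetised and 0.49 in the post-mortem pair. Dancr had 34.5 and 45.6 CPM in the anaesthetised and post-mortem methanol libraries, against 15.9 and 23.2 CPM unfixed, with ratios of 1.12 and 0.98. Zfas1 had ratios of 1.105 and 0.82, and Snhg20 of 0.91 and 0.76. The most abundant, Snhg11, a neuronal host, had 0.20 and 0.08, Snhg14, the long imprinted host on the paternal allele, 0.28 and 0.35, and Rian, a maternally expressed imprinted host, -0.04 and 0.01.

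Of 22 protein-coding snoRNA hosts, all measured, 14 were higher after methanol in both pairs and 7 lower, at medians of 0.52 and 0.32. Eif4a2, a translation initiation helicase, was the one past 2-fold in both, at 60.3 and 58.9 CPM in the anaesthetised and post-mortem methanol libraries, against 26.7 and 28.5 CPM unfixed. Hspa8, a constitutive chaperone, had ratios of 0.65 and 0.59. Ncl (nucleolin) had -0.03 and -0.18, Gnl3 (nucleostemin) -0.06 and -0.19, and Nop56, a core protein of box C/D particles, 0.22 and -0.12.

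Of 8 core proteins of the snoRNA particles, 6 passed the filter, 4 of them higher and 1 lower in both pairs. Fbl (fibrillarin), the methyltransferase of box C/D particles, was the lower one, at 12.6 and 11.4 CPM in the anaesthetised and post-mortem methanol libraries, against 29.1 and 33.2 CPM unfixed, more than 2-fold in both pairs. Nop10, of the H/ACA particle, had ratios of 0.97 and 0.91, and Nop58 0.16 and 0.13. Of 10 decay factors of the nonsense-mediated pathway, 8 passed, of which 3 were higher and 3 lower in both pairs, and the medians were -0.07 and 0.03. Smg6, its endonuclease, had -0.44 and -0.47, Smg1, the kinase of Upf1, -0.00 and 0.03, and Upf2 -0.14 and 0.05.

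Of 79 cytosolic ribosomal protein genes, a group known for pyrimidine tracts at the start of its messages, 71 passed the filter. By the search used for the hosts, 39 of the 58 with a RefSeq promoter held a tract, as did 43.3% of all 27025 genes with one. After methanol 67 were higher and 3 lower in both pairs, 4 of them (Rpl12, Rps21, Rpl41 and Rpl36) past 2-fold in both, and the medians were 0.82 and 0.61. Among the most abundant, Rpl6 had ratios of 0.71 and 0.56 and Rps27 of -0.81 and -1.02. Pseudogenes share much of their sequence, so these counts are uncertain. Of 7 non-coding RNAs that stay in the nucleus, 6 passed, 1 of them higher in both pairs and 5 lower, at medians of -0.23 and -0.29. Malat1 was the higher one (0.17 and 0.03) while Meg3 had -0.53 and -0.60, Kcnq1ot1 -0.18 and -0.25, and Miat -0.14 and -0.24. Harvest medians were -0.24 and -0.43 for the other non-coding hosts and -0.11 and -0.31 for the ribosomal protein genes, in the methanol and unfixed pairs. Over all genes tested they were -0.09 and -0.10 in the same pairs.

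The strand setting of the counting is not given in the sources used here, so overlapping genes are uncertain. Snhg6 overlaps Mcmdc2, on the opposite strand, by 127 bases, and Mcmdc2 had 14.9 and 14.7 CPM in the anaesthetised and post-mortem methanol libraries, against 19.7 and 22.5 CPM unfixed, the opposite order to Snhg6. Gas5 overlaps Zbtb37 on the opposite strand by 428 bases, and Zbtb37 had 19.7 and 20.04 CPM after methanol, against 14.9 CPM in both unfixed libraries. Apart from the snoRNA genes inside them, Snhg1, Snhg8 and Snhg12 overlap no other annotated gene, and the Snhg1 start lies 106 bases from that of Slc3a2 on the opposite strand.

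Over the 24 points of library by class, the gene with the profile most like that of Snhg1 among 11901 genes was Tbp (Pearson r of log2 CPM 0.90), followed by Gas5 and Tomm6 (0.88 each). For Snhg6 they were Snhg1 (0.85), Ptbp2 and Ssna1 (0.83 each), and for Gas5 Znrd2 (0.93), Ssna1 (0.91) and Mrfap1 (0.90). Snhg8 was most like Rpl41 (0.93), Zfp871 (0.92) and Rps15 (0.91). Snhg12 was most like Chac2 (0.84), Dnlz and Cbx8 (0.83 each), and its r with the other 4 hosts ran from 0.31 to 0.55. Its astrocyte and microglia points rested on 0 to 17 UMIs each, with the 0 in anaesthetised unfixed microglia. The part of these points in its r was not tested. The points share 4 libraries and their depths, and the correlations are descriptions with no test.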

How the data were processed

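The authors deposited raw UMI counts for each gene in each barcode, and these were used as they are for 4 single-nucleus libraries, 1 per combination of harvest and treatment. Per the submitters' processing notes the genome was mm10. Aligner, caller, annotation release and strand setting are not given in the sources used here. A barcode was kept with no fewer than 500 UMIs, no fewer than 300 genes, at most 5% mitochondrially encoded UMIs and no Scrublet doublet call (scanpy 1.11.5, assumed rate 6%), which marked 8.95% to 15.2%. UMIs were summed per library, and per class gated on marker genes, and scaled to CPM. Genes entered a comparison at a mean of 10 CPM, in a class also at 50 UMIs. Ratios carry exact conditional, levels Poisson and shares Clopper-Pearson 95% intervals, all for counting error only. UMIs remove PCR copies, and 3 counts served as the floor against 0. With 1 library a group there is no test and no residual spread. The ratio functions were tested on simulated data.

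The members, lists, markers and thresholds were chosen with earlier results of these data known. Named from each list were the 4 genes of highest CPM and all past 2-fold in both pairs, except some that are not reported here. Zfas1 and Dancr were chosen after their values were seen. Snhg7 was not analysed here.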

Additional observations from a re-analysis of the deposited data

Results flagged for a closer look

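Gas5 in medium spiny nuclei moved in opposite directions with harvest, with a log2 ratio of anaesthetised over post-mortem of 0.15 in the methanol pair and -0.40 in the unfixed pair, a difference of 0.55. The difference was not tested, since each group has 1 library. Over all nuclei the same ratios were -0.02 and -0.56.

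Barcodes that failed the UMI, gene or mitochondrial filters held host UMIs above the limit that a count of 0 allows. In the post-mortem libraries all of these barcodes exceeded the limit for mitochondrially encoded UMIs, and 0 were under the UMI minimum. In the post-mortem methanol library 51 such barcodes held 16 Gas5 UMIs. In the post-mortem unfixed library 183 such barcodes held 131 Gas5, 22 Snhg8, 19 Snhg6 and 8 Snhg12 UMIs, which is 562 CPM for Gas5, against 70.0 CPM in the kept nuclei.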

How the results depend on the processing

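No paired analysis was possible because each group holds 1 library, and for the same reason no replicate could be left out. All fixation ratios of the 5 hosts stayed above 0 in all nuclei under every alternative run, and in the neuron classes under every class alternative. In the glial classes 17 of 59 recomputed fixation ratios were not above 0 in astrocyte, 5 of 50 in microglia and 5 of 60 in oligodendrocyte nuclei. By class, 28 fixation ratios moved beyond their counting interval and 321 did not, and 24 harvest ratios moved and 322 did not. The ratios over all nuclei that moved beyond it follow, as log2 values, fixation in the anaesthetised (A) and post-mortem (P) pairs and harvest in the methanol (M) and unfixed (U) pairs. With classes weighted equally: Gas5 1.09 A, 0.66 P, 0.15 M, -0.27 U; Snhg1 1.09 A; Snhg12 0.29 P, -0.088 M, -0.94 U; Snhg6 0.68 A, 0.26 U; Snhg8 0.71 A, 0.91 P, -0.43 M. In nuclei of 3000 to 6000 UMIs: Gas5 1.79 A, 1.05 P, -0.76 U; Snhg1 1.78 A, -0.11 M, -0.70 U; Snhg12 1.32 A, -0.074 M; Snhg8 2.18 A, 1.46 P, 0.15 M, -0.56 U. Thinned to 1000 UMIs: Gas5 0.061 M; Snhg1 0.80 P, -0.14 M; Snhg12 0.039 M, -0.27 U; Snhg6 0.92 A, 0.97 P, -0.48 M; Snhg8 1.71 A, -0.63 U. With median-of-ratios scaling: Gas5 1.44 A, 0.89 P, 0.079 M, -0.47 U. Without ungated nuclei: Gas5 0.076 M, -0.37 U; Snhg12 -0.26 U; Snhg6 -0.059 U; Snhg8 1.22 A. Without barcodes over 30000 UMIs: Gas5 0.029 M. These last 2 alternatives, and a class gate at a share of 0.5, were added after the data had been seen. The harvest sign of Gas5, Snhg6, Snhg8 and Snhg12 therefore changed in at least one alternative. Among the genes tested, 30 were at least 2-fold higher and 217 lower in both fixation pairs, and 33 higher and 11 lower in both harvest pairs. With a minimum mean of 20 CPM these were 14, 95, 21 and 3, with no minimum 398, 1824, 370 and 672, and with median-of-ratios scaling 49, 200, 52 and 6. The cause was not tested, except that a filter changes which genes enter.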
